A study of Homo sapiens with 6 samples.

Results

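Interferon-induced effector genes are the genes that cells switch on after interferon to block viruses, and they were followed here in Mono-mac-6, an established human line of acute myeloid leukemia (AML) with the MLL-AF9 fusion and a monocytic character. The 43 genes were listed as antiviral effectors and other classical interferon-induced genes, leaving out the receptors, JAK-STAT factors and nucleic acid sensors of the pathway. All 43 were found by symbol among the 18806 rows of the expression table, and 41 reached 1 TPM (a share of each library's RNA, corrected for transcript length) in 2 or more libraries and were tested with 11151 genes in all. The other two, GBP1 and RSAD2, were below that level and are given as values. Of the 41 tested genes, 35 reached 1 TPM in at least 1 library with DDX6 targeted. IFIT1, IFIT5, ISG20, IFI44L, EPSTI1 and IFI27 passed through the control libraries only, so a difference in these 6 was built into their selection. CMPK2 reached 1 TPM outside sgNS only in sgDDX6.1 replicate 2 (1.00 TPM), so it also needed sgNS libraries to pass. It is counted among the 35.

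The 3 groups were named for their CRISPR guide: the control sgNS, or either sgDDX6.1 or sgDDX6.2, separate guides against DDX6. DDX6 is an RNA helicase found in processing bodies, where it helps to repress and degrade mRNA. Each group had 2 libraries of poly(A)+ RNA, and all 6 came from a single Cas9-expressing clone transduced with lentivirus and selected with blasticidin and hygromycin B, so all values are from 1 clone of 1 line. The labels give no interferon treatment. Nothing in them shows that replicates were separate cultures, so a p-value here reflects the spread between libraries that may be technical repeats, and nothing beyond it.

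Type I and type III interferons signal through their receptors and the kinases JAK1 and TYK2 to a transcription factor complex that contains STAT2 and IRF9 and binds the interferon-stimulated response element (ISRE) in promoters. Interferon gamma acts through the gamma-activated site (GAS). The proteins made from the induced genes act at each step of a viral life cycle. IFITM proteins hinder entry, OAS enzymes and IFIT proteins detect or block foreign RNA, MX and GBP GTPases attack viral or microbial particles, ISG15 is a ubiquitin-like modifier, and BST2 tethers budding virions. Many cells keep a low level of these genes without added interferon.

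RefSeq promoter sequence (GRCh38.p14, the 250 bases before a transcription start) was found for 35 of the 43 genes. The ISRE core was searched as GAAA, any 2 bases and GAAA again, and, for the other strand, as TTTC, any 2 bases and TTTC, and matches may overlap. The stretches below are shown because they hold an upstream core and come from genes that fell with both guides (IFIT1, IFIT5, ISG15, IFI6, IFITM1 and RTP4) and from genes that did not (BST2, and IFITM3, which fell with sgDDX6.1 only). Each is given 5′ to 3′ on the gene's strand, with the core in capitals.
IFIT1, chr10:89392482-89392554, plus strand: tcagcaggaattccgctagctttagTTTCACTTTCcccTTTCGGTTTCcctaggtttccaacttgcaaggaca
IFIT5, chr10:89414498-89414567, plus strand: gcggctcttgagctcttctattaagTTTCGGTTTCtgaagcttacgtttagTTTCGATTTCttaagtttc
ISG15, chr1:1013359-1013424, plus strand: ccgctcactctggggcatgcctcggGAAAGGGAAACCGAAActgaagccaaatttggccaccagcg
IFI6, chr1:27672251-27672332, minus strand: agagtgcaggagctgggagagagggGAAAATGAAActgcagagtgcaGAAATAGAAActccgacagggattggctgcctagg
IFITM1, chr11:313975-314034, plus strand: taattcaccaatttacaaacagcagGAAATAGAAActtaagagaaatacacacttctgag
RTP4, chr3:187368318-187368384, plus strand: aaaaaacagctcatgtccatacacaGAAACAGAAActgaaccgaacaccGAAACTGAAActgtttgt
BST2, chr19:17405720-17405785, minus strand: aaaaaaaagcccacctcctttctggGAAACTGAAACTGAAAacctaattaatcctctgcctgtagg
IFITM3, chr11:320861-320937, minus strand: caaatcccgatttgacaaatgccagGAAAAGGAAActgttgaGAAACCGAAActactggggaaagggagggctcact

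An ISRE core lay upstream of 22 of the 33 tested effector genes with a promoter entry (66.7%), against 300 of 8717 tested genes with an entry (3.44%) and 3.02% of all 35116 promoter windows. The GAS core, TTCNNNGAA, which reads the same on both strands, lay upstream of 9 of the 33 (27.3%), against 7.49% of tested genes and 6.57% of windows. A match is a description of the letters and not a site shown to be bound. BST2, which did not fall with either guide, also holds these letters. The values by promoter letters are given after those of the genes.

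The targeted gene was looked at before the others. DDX6 stood at 102 and 99.5 TPM in the sgNS libraries, 54.4 and 52.0 in sgDDX6.1, and 52.3 and 53.5 in sgDDX6.2, so both control libraries lay above all 4 sgDDX6 libraries and the guides overlapped. Between 10794 and 11007 genes reached 1 TPM in a library, and the read depth behind TPM is unknown. Among markers of other cells, T and NK cell genes stayed at or below 0.20 TPM, with 5 of 6 at 0 in every library. Markers of plasmacytoid dendritic cells, which make interferon, were mixed. CLEC4C was at 0 throughout and PTCRA at no more than 0.14 TPM. TCF4 had 50.3 and 48.4 TPM in sgNS, 54.2 and 49.5 in sgDDX6.1, and 59.7 and 58.5 in sgDDX6.2. SPIB had 1.35 and 1.01, 1.81 and 1.66, and 2.33 and 2.28 TPM in the same groups. Over both guides TCF4 rose by 0.16 and SPIB by 0.47 (limma adjusted p = 0.0103 and 0.00112). The monocytic marker LYZ was abundant (9531 to 14945 TPM) while CD14 was near absent (0.37 to 1.36 TPM). Of the 9 monocytic markers, 5 rose and 4 fell with DDX6 targeted, against 33.8% and 32.9% of all genes tested. Their sum went from 9923 to 10414 TPM in sgNS to 14214 to 14792 in sgDDX6.1 and 14993 to 15442 in sgDDX6.2. LYZ alone made up 96.1% to 97.4% of that sum, and the other 8 markers summed to 383 to 391 TPM, 384 to 396 TPM and 497 to 530.04 TPM. The part of these markers in the results was not tested. In bulk RNA, fewer cells of a kind and less RNA per cell cannot be told apart.

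With DDX6 targeted, most of the effector genes fell. Averaged over both guides against sgNS, 35 of the 41 tested genes fell, 3 rose (BST2, IFITM2 and GBP2) and 3 did not pass the test (GBP4, IFITM3 and PARP10), by limma with an adjusted p under 0.05. Of all genes tested, 32.9% fell and 33.8% rose by the same rule. The median log2 fold change, which here and below is on the log2(TPM + 1) scale and understates the change of low genes, was -0.82 for the effector genes and 0.00 for all genes tested. At least 2-fold decreases were called for 18 of the 41, against 2.39% of all genes. With a pseudocount of 5 in place of 1 there were 8, and the median was -0.53. Among the 35 genes that reached 1 TPM in an sgDDX6 library, 29 fell and 3 rose, with a median of -0.64 and 14 at least 2-fold lower. With no filter on low values, 37 of all 43 genes were called lower. Summed over the 43 genes, the level was 1312 and 1344 TPM in sgNS, 807 and 802.5 TPM in sgDDX6.1, and 1027 and 1056 TPM in sgDDX6.2.

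All 4 sgDDX6 libraries lay below both sgNS libraries for 34 of the 41 genes, against 31.9% of all genes tested. For the 6 genes that passed the filter through sgNS only, this order was built into their selection. Without them it held for 28 of 35. The 4 sgDDX6 libraries lay above both sgNS libraries for BST2 alone, against 31.5% of all genes. The groups overlapped for the other 6 of the 41 genes. Replicates lay close together, with a median difference between the 2 libraries of a group of 0.06 (sgNS), 0.11 (sgDDX6.1) and 0.05 (sgDDX6.2) on the log2 scale over the tested effector genes.

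**Figure D1:**
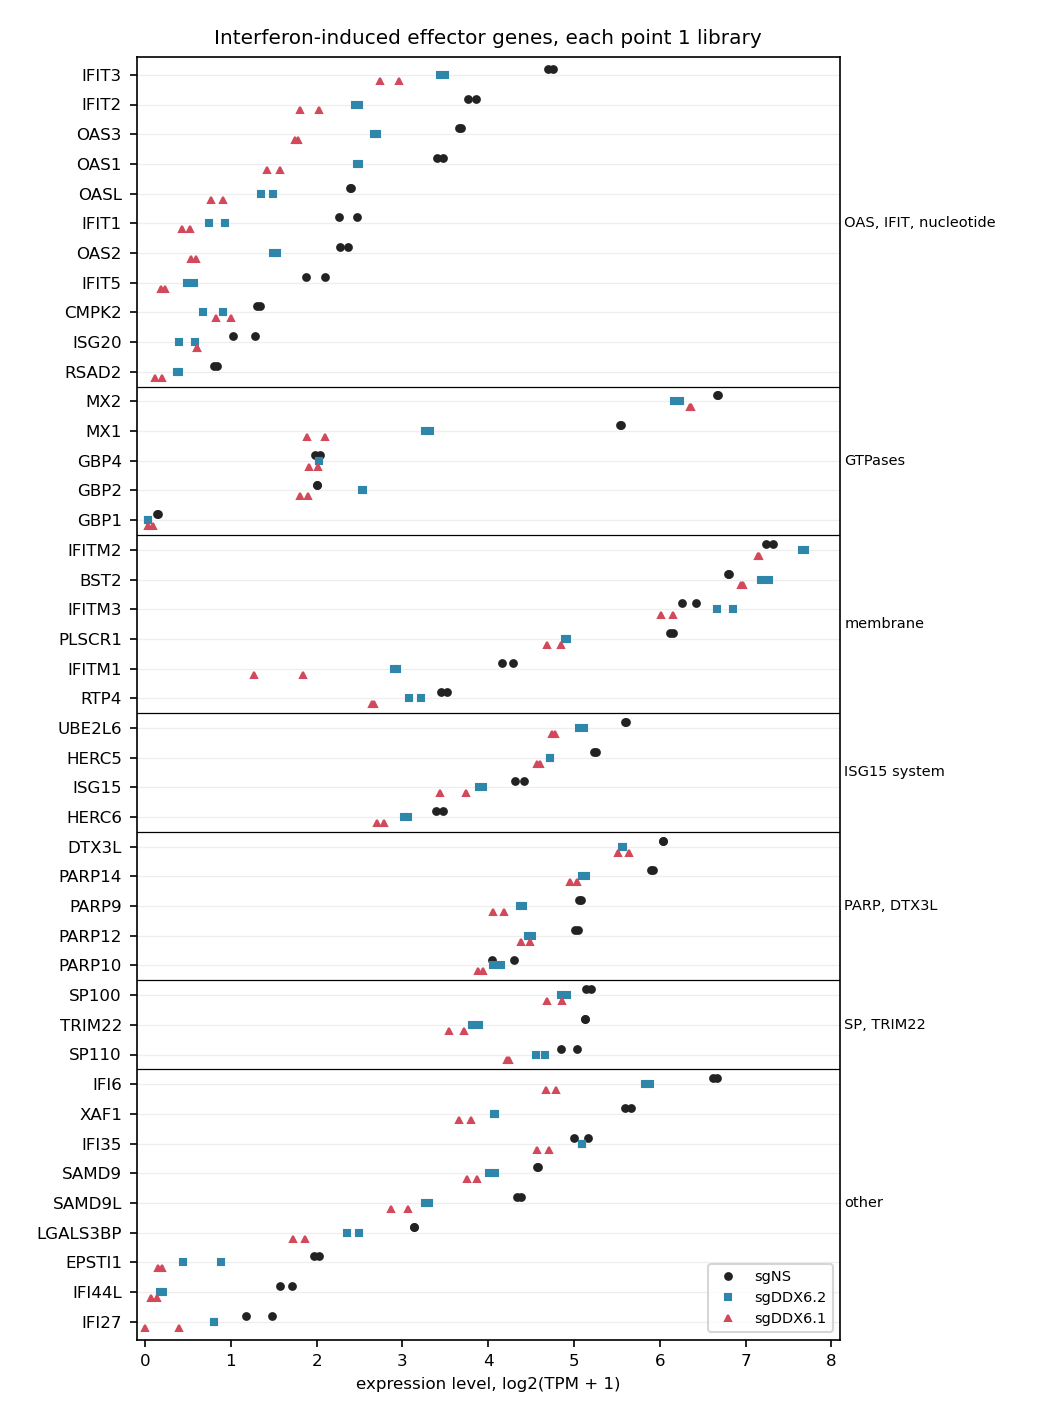
Level of each of the 43 effector genes, as log2(TPM + 1) on the horizontal axis, in each of the 6 libraries; every point is 1 library, and genes are grouped by role. Black points (sgNS) lie furthest right in most rows and red triangles (sgDDX6.1) furthest left, while BST2, IFITM2, IFITM3 and GBP2 have the blue squares (sgDDX6.2) on the right.

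The enzymes and RNA-binding proteins that act on viral nucleic acid fell without exception among those tested. All 10 tested genes of this class were called lower with each guide. Averaged over both guides, 8 of them fell by 2-fold or more, and the median of their log2 fold changes was -1.44. With sgDDX6.2 alone 4 of the 10 fell by 2-fold or more, against 8 with sgDDX6.1. IFIT1, IFIT5 and ISG20 passed the filter through sgNS only. Without them 6 of 7 fell by 2-fold or more over both guides, at the same median of -1.44, and 2 of 7 with sgDDX6.2 alone. IFIT3, which stabilizes the RNA cap-binding protein IFIT1, had 26.0 and 25 TPM in sgNS, 6.76 and 5.65 TPM in sgDDX6.1, and 9.82 and 10.2 TPM in sgDDX6.2. Its log2 fold change was -1.57 (SE 0.07, adjusted p = 5.08e-09 by limma), and the 3 groups did not overlap. OAS3, which makes 2-5A, the short oligoadenylate that activates RNase L, had 11.6 and 11.8 TPM in sgNS against 2.43 and 2.37 TPM in sgDDX6.1 and 5.52 and 5.36 TPM in sgDDX6.2. The log2 fold change of OAS3 was -1.44 (SE 0.07, limma adjusted p = 7.94e-09). IFIT2, another IFIT protein that binds RNA, went from 13.5 and 12.6 TPM to 2.51 and 3.08 TPM with sgDDX6.1 and 4.62 and 4.44 TPM with sgDDX6.2, a log2 fold change of -1.62. In OAS1, an enzyme of the same kind as OAS3, the libraries stood at 10.1 and 9.54 TPM in sgNS, 1.67 and 1.98 TPM in sgDDX6.1, and 4.64 and 4.53 TPM in sgDDX6.2. All 4 genes therefore kept the same order, with sgDDX6.1 lowest and sgNS highest in each library.

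The rest of this class was lower in TPM. OAS2 and OASL, relatives of OAS1 of which OASL lacks enzyme activity, kept 12.0% and 18.6% of their sgNS mean TPM with sgDDX6.1, and 46.4% and 39.5% with sgDDX6.2. IFIT1 had 3.78 and 4.52 TPM in sgNS and at most 0.91 TPM in any sgDDX6 library, and IFIT5, which has the ISRE cores printed above, had 3.27 and 2.67 TPM against at most 0.48 TPM. The nuclease ISG20 (log2 fold change -0.61) and the mitochondrial nucleotide kinase CMPK2 (-0.47) had the smallest decreases of the class on the log2(TPM + 1) scale. In TPM, ISG20 kept 42.1% of its sgNS mean with sgDDX6.1, more than OAS2 and OASL. With sgDDX6.2 it kept 33.2%, less than OAS2 and OASL. RSAD2, which encodes viperin and makes a chain-terminating nucleotide, was not tested. It stood at 0.74 and 0.79 TPM in sgNS, 0.15 and 0.08 TPM in sgDDX6.1, and 0.29 and 0.31 TPM in sgDDX6.2, so its levels took the same order as those of the OAS genes. CMPK2 and RSAD2 lie on opposite strands and share 830 bases in GENCODE release 29, so reads from the shared stretch cannot be told apart unless counting used the strand, which is not given in the sources used here.

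The GTPases were split. MX1, which traps incoming viral nucleocapsids, had the largest decrease of the 41 tested genes on the log2(TPM + 1) scale, and MX2, its neighbour, which acts on nuclear entry of HIV-1, had a small one. MX1 went from 45.3 and 45.9 TPM in sgNS to 2.69 and 3.28 TPM in sgDDX6.1 and 8.59 and 8.99 TPM in sgDDX6.2, or 6.55% and 19.3% of the control mean. Over both guides its log2 fold change was thus -2.90 (SE 0.07, limma adjusted p = 2.12e-11). MX2 had 100.2 and 102 TPM in sgNS, 81.0 and 80.8 TPM in sgDDX6.1, and 70.7 and 74.1 TPM in sgDDX6.2, a log2 fold change of -0.39 (SE 0.04, limma adjusted p = 3.53e-06). The genes lie side by side at chr21:41361943-41459214 (GRCh38). In sgNS MX2 was the more abundant of the pair, and it was the one that kept most of its level.

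The guanylate-binding proteins did not fall with MX1. GBP2, which coats vacuoles that hold microbes, had 3.01 TPM in both sgNS libraries, 2.72 and 2.50 TPM in sgDDX6.1, and 4.80 and 4.79 TPM in sgDDX6.2. Averaged over the guides this was a rise of 0.19 (SE 0.08, limma adjusted p = 0.0491), a call that was lost when any library except sgDDX6.1 replicate 2 was left out (adjusted p from 0.0853 to 0.158), with no filter (0.0509), with a pseudocount of 0.1 (0.0685) and with the replicate number as a block (0.053). GBP4 had 3.11 and 2.95 TPM in sgNS, 3.05 and 2.76 TPM in sgDDX6.1, and 3.07 and 3.09 TPM in sgDDX6.2, groups that overlapped, with a log2 fold change of -0.01 (SE 0.08, adjusted p = 0.888). GBP1 was not tested, at 0.10 and 0.11 TPM in sgNS and at most 0.07 TPM in the sgDDX6 libraries. The GBP genes lie together at chr1:89052319-89198932 and are paralogs with shared sequence, as are the IFIT, OAS, IFITM and SAMD9 genes among themselves. RSEM divides the reads that such genes share, so the values of single members are less certain.

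Among proteins of membranes, which act on entry, release and trafficking, 3 genes fell, 2 rose and IFITM3 did not pass the test. PLSCR1, a phospholipid scramblase that hinders viral entry, had 68.4 and 69.9 TPM in sgNS, 27.7 and 24.7 TPM in sgDDX6.1, and 29.2 and 28.8 TPM in sgDDX6.2. Its log2 fold change was -1.30 (SE 0.05, limma adjusted p = 1.91e-09), and all 4 sgDDX6 libraries were below 30 TPM. RTP4, a chaperone of receptors that also restricts some viruses, had 10.5 and 9.90 TPM in sgNS, 5.26 and 5.34 TPM in sgDDX6.1, and 7.46 and 8.30 TPM in sgDDX6.2, a log2 fold change of -0.58. BST2, or tetherin, was the single effector gene with all 4 sgDDX6 libraries above both controls. It had 109.6 and 110.5 TPM in sgNS, 124 and 122 TPM in sgDDX6.1, and 144 and 154 TPM in sgDDX6.2, a rise of 0.30 (SE 0.04, limma adjusted p = 3.55e-05).

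The IFITM genes, which sit within chr11:307631-327537, differed among themselves. IFITM1, found mostly at the cell surface, had 18.5 and 16.9 TPM in sgNS, 1.41 and 2.59 TPM in sgDDX6.1, and 6.45 and 6.65 TPM in sgDDX6.2, and its log2 fold change was -1.99 (SE 0.13, limma adjusted p = 8.66e-08). IFITM2 and IFITM3 act mostly in endosomes, and neither fell over both guides. IFITM2 had 149.6 and 159 TPM in sgNS, 140.5 and 141 TPM in sgDDX6.1, and 201 and 206 TPM in sgDDX6.2. Over both guides it rose by 0.13 (SE 0.04, limma adjusted p = 0.00702), and the call was lost without sgNS replicate 1 (adjusted p = 0.119) and with quantile normalization (0.08, adjusted p = 0.0658). IFITM3 had 75.4 and 84.4 TPM in sgNS, 63.4 and 70.4 TPM in sgDDX6.1, and 101 and 114 TPM in sgDDX6.2, with a log2 fold change of 0.09 (SE 0.06, adjusted p = 0.246) that passed the test without sgNS replicate 2 (adjusted p = 0.0469) and with the replicate number as a block (adjusted p = 0.0337). In both genes the sgDDX6.1 libraries lay below and the sgDDX6.2 libraries above the controls. The whole annotated span of IFITM1, 1767 bases at chr11:313506-315272, lies within that of IFITM2 on the same strand. The values of both genes therefore depend on how the reads were divided.

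All 4 genes of the ISG15 system fell, with a median log2 fold change of -0.60 and no decrease of 2-fold or more. UBE2L6, the conjugating enzyme for ISG15, had 47.4 and 47.6 TPM in sgNS, 26.4 and 25.7 TPM in sgDDX6.1, and 32.3 and 33.7 TPM in sgDDX6.2 (log2 fold change -0.68, SE 0.05, limma adjusted p = 1.66e-07). HERC5, the main ligase for ISG15, had 37.1 and 36.5 TPM against 23.3 and 22.8 TPM with sgDDX6.1 and 25.4 TPM in both sgDDX6.2 libraries, a log2 fold change of -0.58. HERC6 is the neighbour and relative of HERC5. It had 10.1 and 9.53 TPM in sgNS, 5.88 and 5.52 TPM in sgDDX6.1, and 7.38 and 7.08 TPM in sgDDX6.2, a log2 fold change of -0.54. ISG15 itself, with the overlapping cores printed above, had 18.8 and 20.4 TPM in sgNS, 9.85 and 12.3 TPM in sgDDX6.1, and 13.8 and 14.3 TPM in sgDDX6.2, a log2 fold change of -0.61 (SE 0.08, limma adjusted p = 3.45e-05). The modifier, its conjugating enzyme and its ligase thus kept between 54.9% and 71.7% of their control mean TPM, with the 3 groups apart in each gene.

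Of 5 genes of the ADP-ribosylating PARP family and its partner DTX3L, 4 fell, with a class median of -0.57. PARP14, which adds single ADP-ribose units to proteins, had 58.7 and 59.8 TPM in sgNS, 31.8 and 29.9 TPM in sgDDX6.1, and 34.2 and 33.1 TPM in sgDDX6.2, a log2 fold change of -0.86 (SE 0.05, limma adjusted p = 2.5e-08). PARP9, which pairs with the ubiquitin ligase DTX3L, had 32.2 and 33.0 TPM in sgNS, 15.6 and 17.2 TPM in sgDDX6.1, and 20.2 and 19.6 TPM in sgDDX6.2, a log2 fold change of -0.82. DTX3L had 64.5 and 64.6 TPM in sgNS, 48.9 and 44.6 TPM in sgDDX6.1, and 46.7 and 46.2 TPM in sgDDX6.2, a log2 fold change of -0.46. The genes of these partners overlap by 340 bases on opposite strands in GENCODE release 29, and PARP9 had the larger log2 fold change. PARP12, a zinc-finger member, had 32.1 and 31.4 TPM in sgNS, 21.4 and 19.9 TPM in sgDDX6.1, and 21.0 and 21.8 TPM in sgDDX6.2, a log2 fold change of -0.57. For PARP10 the libraries overlapped, at 15.4 and 18.8 TPM in sgNS, 13.7 and 14.3 TPM in sgDDX6.1, and 15.6 and 16.8 TPM in sgDDX6.2. Its log2 fold change of -0.17 (SE 0.08) had a limma adjusted p of 0.0662, and passed without sgNS replicate 1 (adjusted p = 0.0046), with the replicate number as a block (adjusted p = 0.0209) and after removal of the GC trend (-0.28, adjusted p = 0.00103).

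The 3 genes of nuclear bodies and the TRIM family fell. TRIM22, a ubiquitin ligase that restricts several viruses, had 34.1 and 33.9 TPM in sgNS, 12.2 and 10.7 TPM in sgDDX6.1, and 13.9 and 13.01 TPM in sgDDX6.2, a log2 fold change of -1.39 (SE 0.06, limma adjusted p = 5.08e-09). SP110 and SP100 are related nuclear body proteins that lie together on chromosome 2. SP110 had 31.9 and 27.7 TPM in sgNS, 17.6 and 17.97 TPM in sgDDX6.1, and 22.6 and 24.2 TPM in sgDDX6.2, a log2 fold change of -0.52. SP100 had 34.3 and 35.7 TPM in sgNS, 27.9 and 24.7 TPM in sgDDX6.1, and 29.2 and 27.7 TPM in sgDDX6.2, a log2 fold change of -0.34. In all 3 genes the sgDDX6 libraries lay below the controls, and for SP100 the guides overlapped.

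The remaining 9 tested genes, of mixed function, fell too. Their median was -1.23, and 6 decreases were of 2-fold or more. Without EPSTI1, IFI44L and IFI27, which passed the filter through sgNS only, the median of the other 6 was -1.13, with 4 such decreases. XAF1, which promotes cell death (chr17:6755447-6775647), had 47.3 and 49.8 TPM in sgNS, 12.9 and 11.6 TPM in sgDDX6.1, and 15.9 and 15.7 TPM in sgDDX6.2 (log2 fold change -1.73, SE 0.06, limma adjusted p = 3.24e-10). IFI6, a small membrane protein that restricts flaviviruses, had 97.6 and 100.8 TPM in sgNS, 24.6 and 26.6 TPM in sgDDX6.1, and 58.3 and 55.7 TPM in sgDDX6.2 (log2 fold change -1.35, SE 0.05, limma adjusted p = 5.26e-10). Both genes were higher with sgDDX6.2 than with sgDDX6.1, XAF1 by 0.35 and IFI6 by 1.13 on the log2 scale. SAMD9L, which slows growth and restricts poxviruses, had 19.1 and 19.9 TPM in sgNS, 7.38 and 6.29 TPM in sgDDX6.1, and 8.95 and 8.62 TPM in sgDDX6.2, a log2 fold change of -1.23 (SE 0.07, limma adjusted p = 3.79e-08). Its neighbour SAMD9, within the same span of chr7:93099513-93148369, fell by 0.64. IFI44L had 1.97 and 2.27 TPM in sgNS and between 0.05 and 0.16 TPM in the sgDDX6 libraries.

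LGALS3BP, a secreted glycoprotein, fell by 1.02, from 7.75 and 7.76 TPM in sgNS to 2.30 and 2.63 TPM in sgDDX6.1 and 4.10 and 4.61 TPM in sgDDX6.2. EPSTI1 had 3.09 and 2.90 TPM in sgNS and between 0.11 and 0.84 TPM with DDX6 targeted. IFI27 had 1.26 and 1.78 TPM in sgNS and 0.74 TPM in both sgDDX6.2 libraries, and was listed at 0.32 and 0 TPM in sgDDX6.1. The decrease of IFI35, which had 31.05 and 34.8 TPM in sgNS, was seen with sgDDX6.1 (22.7 and 25.2 TPM) and not with sgDDX6.2 (33.0 and 33.1 TPM), and the guides differed by 0.45 (limma adjusted p = 0.000652). Its call over both guides (log2 fold change -0.22) was lost without sgNS replicate 2 (limma adjusted p = 0.116).

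Each guide was also compared with sgNS on its own. These comparisons share the sgNS libraries, so agreement between them is not independent. With sgDDX6.1, 38 of the 41 genes fell and BST2 rose, against 29.7% and 31.8% of all genes tested, with a median log2 fold change of -0.92. At least 2-fold decreases numbered 19, against 2.59% of all genes. Without the 6 genes that passed the filter through sgNS only, 32 of 35 fell, 14 of them by 2-fold or more, and the median was -0.83. With sgDDX6.2, 34 fell and 4 rose (BST2, GBP2, IFITM2 and IFITM3), against 32.7% and 31.5% of all genes, with a median of -0.66. At least 2-fold decreases numbered 12 there, against 2.38%. Without the same 6 genes, 28 of 35 fell, 8 of them by 2-fold or more, and the median was -0.53. With sgDDX6.1 and sgDDX6.2, MX1 had log2 fold changes of -3.55 (SE 0.08) and -2.25 (SE 0.08), IFITM1 -2.67 and -1.31 (SE 0.15 each), and XAF1 -1.91 and -1.56 (SE 0.07 each). Among weaker calls, CMPK2, IFITM2, IFITM3 and PARP10 lost theirs with sgDDX6.1, and IFI27 with sgDDX6.2, when 1 library was left out. Quantile normalization ended the calls with sgDDX6.1 of BST2 (0.09, limma adjusted p = 0.0625), CMPK2 (-0.24, adjusted p = 0.136) and PARP10 (-0.23, adjusted p = 0.0542), and removal of a trend on transcript GC content that of BST2 (0.08, adjusted p = 0.0548). The left-out library was sgDDX6.1 replicate 1 for CMPK2 (limma adjusted p = 0.101) and sgNS replicate 2 for IFI27 (adjusted p = 0.0733). IFITM3 depended on sgDDX6.1 replicate 1 and sgNS replicate 2 (adjusted p up to 0.123), and IFITM2 and PARP10 on those and sgDDX6.1 replicate 2 (adjusted p up to 0.182 and 0.22).

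**Figure D2:**
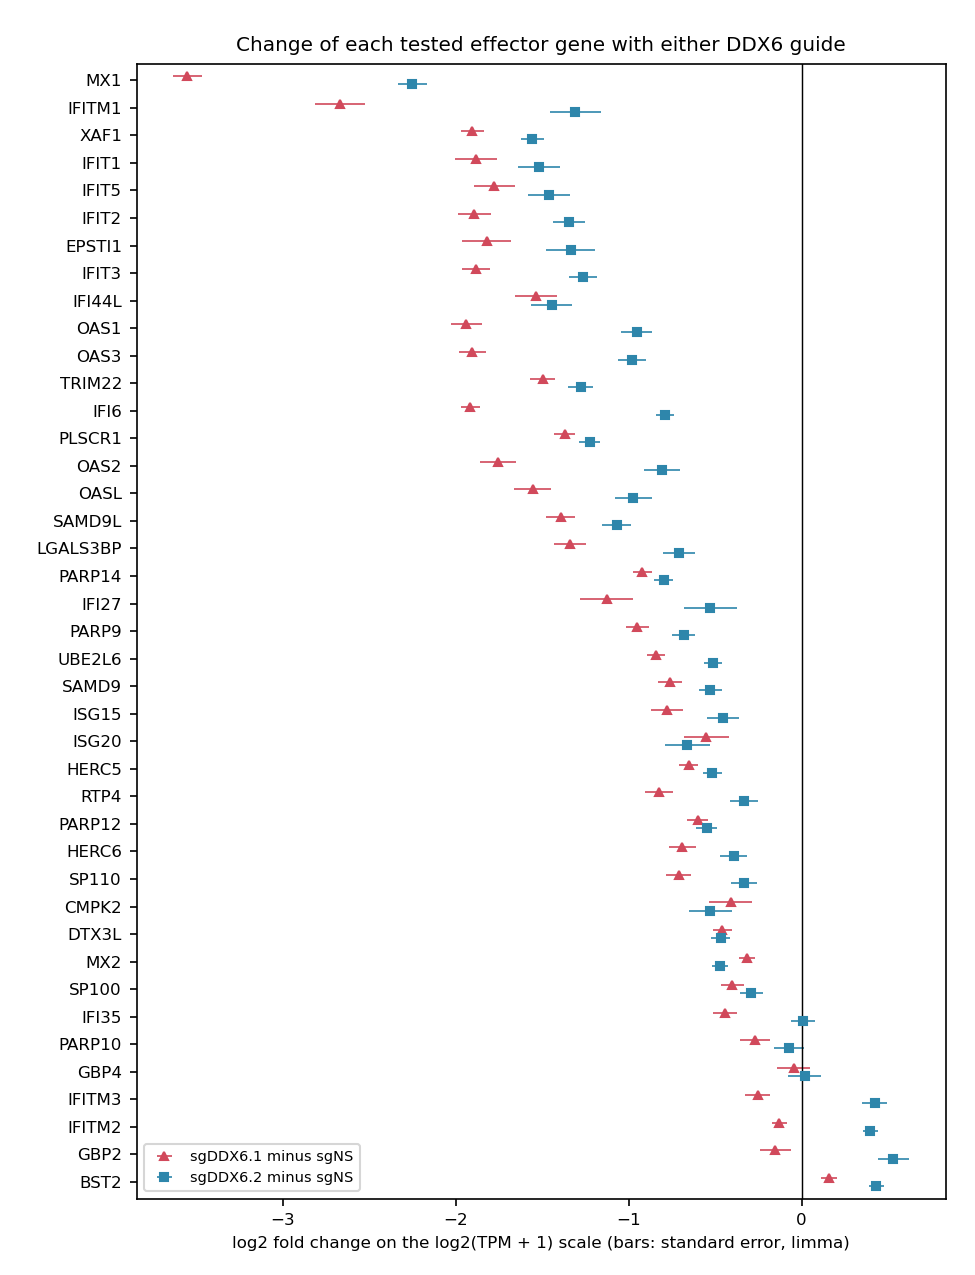
Log2 fold change of each of the 41 tested effector genes against sgNS on the log2(TPM + 1) scale, for sgDDX6.1 (red triangles) and sgDDX6.2 (blue squares); bars are the standard error from limma. In most rows both symbols lie left of 0 and the red one further left, with MX1 at -3.55 and -2.25, while BST2 has both symbols right of 0.

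The guides differed in how far the effector genes fell. Tested directly, 28 of the 41 genes were higher with sgDDX6.2 than with sgDDX6.1 and 1, MX2, was lower, by limma with an adjusted p under 0.05, against 17.0% and 18.6% of all genes tested. The median difference was 0.33 on the log2 scale, and -0.02 over all genes. Without the 6 genes that passed the filter through sgNS only, 25 of 35 were higher, at the same median. DDX6 mRNA itself did not separate the guides, with a difference of -0.01 (SE 0.05, adjusted p = 0.918), and mRNA left after a guide has cut is no measure of the protein. By libraries, both sgDDX6.2 libraries lay above both sgDDX6.1 libraries for 35 of the 41 genes, against 30.7% of all genes, and below for 2 (MX2 and ISG20), against 38.5%. Libraries in the order sgDDX6.1, sgDDX6.2, sgNS from lowest to highest, without overlap, were found for 28 of the 41, against 7.48% of all genes. Without the 6 genes that passed the filter through sgNS only, this order was found for 23 of 35. The order sgDDX6.2, sgDDX6.1, sgNS was found for 2 of the 41, against 12.4% of all genes.

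The 6 lowest adjusted p-values among genes higher with sgDDX6.2 were those of IFI6, MX1, IFITM2, OAS3, OAS1 and IFITM1. IFI6 differed by 1.13 (SE 0.05, limma adjusted p = 2.45e-07), with 25.8% of its control mean TPM left with sgDDX6.1 and 57.4% with sgDDX6.2. MX1 differed by 1.30 (SE 0.08, limma adjusted p = 1.77e-06) and IFITM1 by 1.36 (SE 0.15, adjusted p = 5.6e-05). OAS3 and OAS1, which lie together on chromosome 12, differed by 0.92 and 0.99 (limma adjusted p = 1.49e-05 and 1.98e-05). IFITM2 differed by 0.53 (SE 0.04, adjusted p = 9.21e-06), and it is the 1 of these 6 that was above the controls with sgDDX6.2. MX2 went the other way, by -0.16 (SE 0.04, adjusted p = 0.0184), a call that was lost without the variance trend (adjusted p = 0.0527) and with quantile normalization (adjusted p = 0.05). PLSCR1, PARP14, HERC5 and PARP12 were not called different between the guides, with differences of 0.14 (SE 0.06), 0.12 (SE 0.05), 0.13 (SE 0.05) and 0.05 (SE 0.06). PLSCR1, PARP14 and HERC5 were called higher with sgDDX6.2 under median centring (limma adjusted p from 0.0307 to 0.0417), quantile normalization (0.0297 to 0.0416) and removal of the GC trend (0.00614 to 0.00955), and PLSCR1 also with the replicate number as a block (0.0469).

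Leaving out single libraries took the count of genes higher with sgDDX6.2 to between 20 and 29. Calls of 10 genes were lost in this way, with limma adjusted p-values from 0.0516 to 0.219. EPSTI1 and IFIT1 lost theirs without either sgDDX6.1 library or sgDDX6.2 replicate 1, and IFI27 without sgDDX6.1 replicate 2. For ISG15 it was sgDDX6.1 replicate 1 or either sgDDX6.2 library, and for SAMD9 and TRIM22 sgDDX6.1 replicate 2 or either sgDDX6.2 library. HERC6 and SAMD9L depended on sgDDX6.1 replicate 2 and sgDDX6.2 replicate 1, and MX2 and PARP9 on replicate 1 of both guides. PARP10 was called without either sgNS library (adjusted p = 0.0447 and 0.0463) and PLSCR1 without sgDDX6.1 replicate 1 (adjusted p = 0.0242). Among markers of other cells, KRT18 of epithelium moved in the same order, at 19.6 and 19.8 TPM in sgNS, 10.8 and 11.3 TPM in sgDDX6.1, and 16.4 and 18.8 TPM in sgDDX6.2. The erythroid marker HBA1 went the other way. It had 0 and 0.47 TPM in sgNS, 1.47 and 1.25 TPM in sgDDX6.1, and 0.63 and 1.17 TPM in sgDDX6.2. Over both guides it rose by 0.80 (limma adjusted p = 0.000924). The 7 erythroid, stromal and epithelial markers summed to 19.8 and 20.4 TPM, 12.3 and 12.7 TPM, and 17.1 and 20.1 TPM in these groups, with HBB at 0 in every library and EPCAM at no more than 0.03 TPM. The 4 B cell markers summed to 2.37 to 2.95 TPM, 1.87 to 1.97 TPM and 4.52 to 5.23 TPM, with MS4A1 at 0. The part of these in the difference between guides was not tested.

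**Figure D3:**
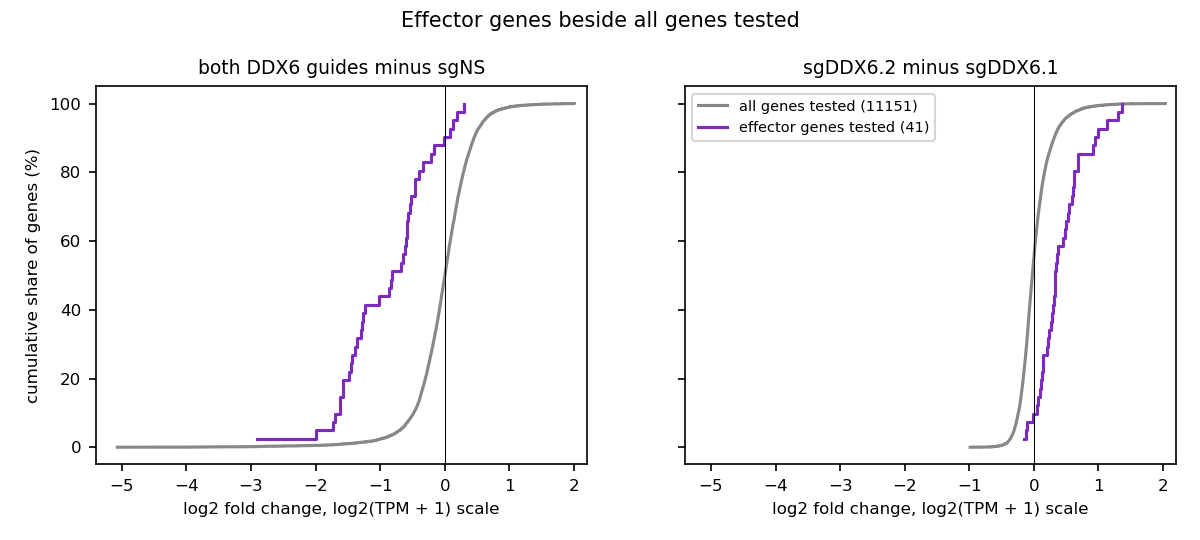
Cumulative share of genes (vertical axis, %) at or below each log2 fold change (horizontal axis, log2(TPM + 1) scale), for the 41 tested effector genes (purple) and all 11151 genes tested (grey). On the left, both guides minus sgNS, the purple line lies to the left of the grey one with a median of -0.82 against 0.00. Without the 6 effector genes that passed the filter through sgNS only, that effector median is -0.64. On the right, sgDDX6.2 minus sgDDX6.1, the purple line lies to the right with a median of 0.33 against -0.02.

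Effector genes often sit beside relatives in the genome, and 26 of the 43 fall into 10 groups within 1000000 bases. Some groups were uniform on the log2(TPM + 1) scale. The 4 IFIT genes at chr10:89283694-89421001 had log2 fold changes over both guides from -1.70 to -1.57, and OAS1, OAS3 and OAS2 at chr12:112906777-113011723 from -1.45 to -1.28. Others were not, as the IFITM genes spanned -1.99 to 0.13 and MX1 and MX2 -2.90 to -0.39. PARP9, DTX3L and PARP14 at chr3:122527924-122730840 lay between, from -0.86 to -0.46.

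By promoter letters, the 22 tested genes with an upstream ISRE core had a median log2 fold change of -0.94 over both guides, from -2.90 (MX1) to 0.30 (BST2), and 20 of them fell. All 6 genes that passed the filter through sgNS only are among them, and without these the median of the other 16 was -0.84, with 14 lower. The 11 without a core in the 250 bases had a median of -0.52, from -1.73 (XAF1) to -0.01 (GBP4), and 10 fell. With each guide alone, and without those 6 genes, the medians were -0.93 and -0.69 (sgDDX6.1) and -0.70 and -0.47 (sgDDX6.2). The difference between the sets was not tested. The 8 genes with no promoter entry were not placed in either set.

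The rest of the interferon pathway was set beside the effector genes. Over both guides, 32.9% of all genes tested fell and 33.8% rose. The counts of each list below are to be read beside these shares, and a count near them is not particular to its list. No interferon gene was tested, since all 22 ligand genes were below the level needed, 15 of them at 0 in every library. The highest value of the list, singled out after the values were seen, was 0.53 TPM for IFNB1, interferon beta, in sgNS replicate 1. Of 13 receptor and JAK-STAT genes, 3 fell and 7 rose, with a median log2 fold change of 0.15. IRF9, the DNA-binding subunit of the complex that binds the ISRE, had 46.5 and 48.0 TPM in sgNS, 15.9 and 16.2 TPM in sgDDX6.1, and 22.0 and 23.6 TPM in sgDDX6.2. Its log2 fold change was -1.26 (SE 0.05, limma adjusted p = 2.02e-09), and between guides it differed by 0.48 (SE 0.06, adjusted p = 0.000159), the same order of libraries as in most effector genes. STAT2, of the same complex, fell by 0.59. IL10RB, a chain of the interferon lambda and interleukin-10 receptors, rose by 0.43.

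Of 8 tested IRF family and IRF-binding genes, 4 fell and 2 rose (median -0.07). IRF1, an activator of ISRE genes, fell by 0.76 and the corepressor IRF2BP2 by 0.59, while IRF5 and IRF8, factors of monocyte and macrophage genes, rose by 0.97 and 0.86. Of 18 sensors and adaptors of nucleic acid recognition, 9 fell and 5 rose (median -0.03). Of these, the RNA sensor IFIH1 fell by 0.81 and TRIM25, a ubiquitin ligase of RNA sensing, by 0.95. The DNA sensor IFI16 had a log2 fold change of -1.85, and UNC93B1, which carries Toll-like receptors to endosomes, rose by 0.69. Of 12 negative regulators, 4 fell and 5 rose (median 0.04). USP18, which removes ISG15 and dampens the receptor, fell by 0.54, SOCS1 by 0.59 and CISH by 0.54, while the phosphatase PTPN6 rose by 0.47.

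Among 11 tested genes of class I antigen presentation, which interferon also induces, 4 fell and 3 rose (median -0.04). PSMB10 of the immunoproteasome rose by 0.43 and the trimming peptidase ERAP2 fell by 0.31. Over both guides the peptide transporter TAP1 rose by 0.18 and HLA-E fell by 0.18. With sgDDX6.1 alone these 2 genes had 0.31 and -0.33, both called. With sgDDX6.2 alone they had 0.06 and -0.04, neither called (limma adjusted p = 0.29 and 0.328). Of 31 other interferon-induced genes, 17 fell and 8 rose (median -0.17). WARS, a tRNA synthetase that is also a gene of amino acid supply, had the largest decrease among them, with 620.3 and 625 TPM in sgNS and between 91.9 and 97.8 TPM in the sgDDX6 libraries. SLFN5 fell by 1.75, and the chemokine CXCL10 had a log2 fold change of -2.26. IFI30, a lysosomal thiol reductase, rose by 1.39, from 121 and 131 TPM to 256 and 266 TPM with sgDDX6.1 and 414 and 427 TPM with sgDDX6.2. The medians of these lists lay between -0.17 and 0.15, against -0.82 for the effector genes. Without the 6 effector genes that passed the filter through sgNS only, the effector median was -0.64. The differences between lists were not tested.

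**Figure D4:**
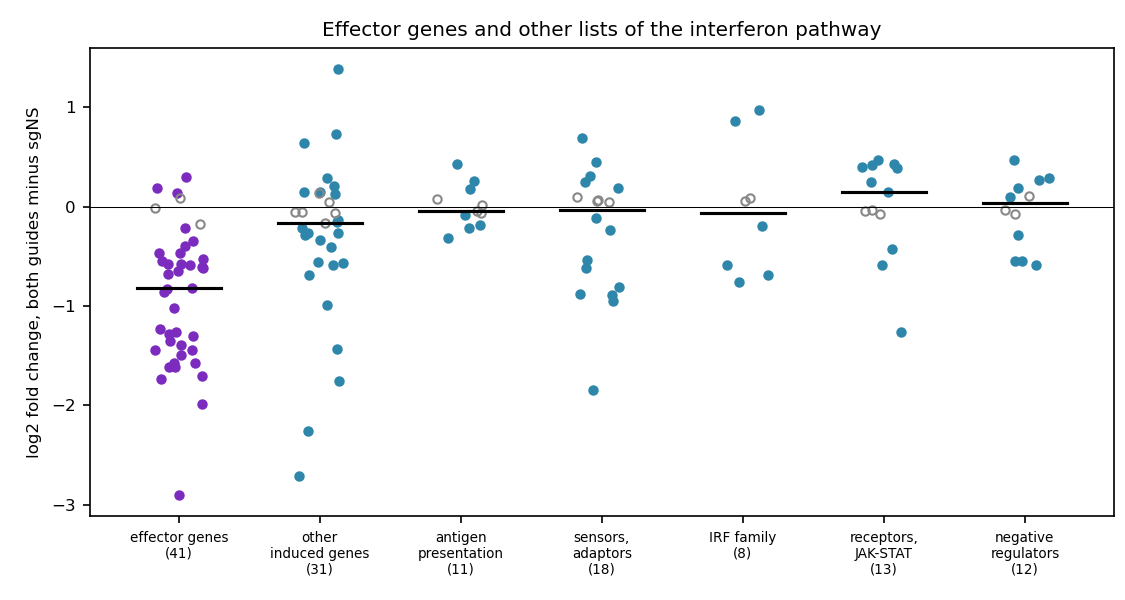
Log2 fold change over both guides minus sgNS (vertical axis, log2(TPM + 1) scale) for each tested gene of the effector list (purple) and of 6 other lists of the interferon pathway (blue); filled points passed limma's test, open points did not, and bars are list medians. The effector median is -0.82, and the other medians lie between -0.17 (other induced genes) and 0.15 (receptors and JAK-STAT). Without the 6 effector genes that passed the filter through sgNS only, the effector median is -0.64.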

How the data were processed

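Poly(A)+ RNA of 6 libraries was sequenced. The authors deposited 1 table of TPM per gene symbol and library. RSEM 1.2.31 with GRCh38 is named in the submitters' processing notes. Which aligner, annotation and strand setting were used is not given in the sources used here. Because TPM is relative, a rise of abundant genes lowers the rest, and read depth is unknown. The labels give harvest 8 days after infection and the design text a selection of 1 to 2 weeks, which leaves the day of harvest uncertain.

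Values were taken as log2(TPM + 1), and genes with TPM of 1 or more in 2 or more libraries were kept (11151). In limma 3.58.1 (R 4.3.3), 3 group means were fitted with a variance trend (6 libraries, 3 residual degrees of freedom). Tests were two-sided and p-values adjusted after Benjamini and Hochberg over the genes kept, with 0.05 as the threshold. The procedure was tested on simulated data. Coordinates and overlaps come from GENCODE release 29 (GRCh38), promoters from RefSeq (GRCh38.p14).

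Members and lists were chosen with earlier results of these data known. Values in every library are given for up to 4 genes of each role class with the lowest adjusted p over both guides and for each gene not called lower. Guide differences name up to 6 genes in each direction, and other lists up to 4 genes, by lowest adjusted p. A gene that this rule selects is not reported here. Other genes named with values were chosen after these were seen. As alternatives, the pseudocount was set to 0.1 or 5 and the filter to none or to a TPM of 5. Libraries were also quantile normalized, median centred, left out in turn, blocked by replicate number, fitted without the trend, fitted for the compared groups alone, or pooled over both DDX6 guides. Removal of a trend on transcript GC content was added after the data were seen.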

Additional observations from a re-analysis of the deposited data

Results flagged for a closer look

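GBP2, IFITM2 and IFITM3 lay on opposite sides of the controls with the 2 guides: both sgDDX6.1 libraries were below and both sgDDX6.2 libraries above sgNS. Tested directly with limma, sgDDX6.2 minus sgDDX6.1 was 0.68 for GBP2 (adjusted p = 0.00023), 0.53 for IFITM2 (adjusted p = 9.21e-06) and 0.68 for IFITM3 (adjusted p = 5.84e-05) on the log2 scale. Against sgNS the decrease with sgDDX6.1 was not called for GBP2 (-0.15, adjusted p = 0.161), and was called for IFITM2 (-0.13, adjusted p = 0.0203) and IFITM3 (-0.25, adjusted p = 0.01). The increases with sgDDX6.2 were 0.53, 0.40 and 0.42, all called.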

How the results depend on the processing

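The count of effector genes called lower over both guides lay between 26 (of 30 left by a TPM filter of 5) and 37 (of 43 with no filter), between 29 and 38 for sgDDX6.1 and between 25 and 36 for sgDDX6.2. OAS1, IFIT2 and LGALS3BP passed the filter of 5 through sgNS only, with at most 4.64, 4.62 and 4.61 TPM in an sgDDX6 library. Counts at that filter therefore include decreases built into the selection. The count higher with sgDDX6.2 than with sgDDX6.1 lay between 20 and 33. No label gives a shared batch, and whether the replicate numbers pair the samples is not known. Deviations of same-numbered libraries from their group means had correlations of 0.26 (sgNS with sgDDX6.1), 0.10 (sgNS with sgDDX6.2) and 0.04 (sgDDX6.1 with sgDDX6.2). These values do not settle it. With the replicate number as a block, 36, 38 and 34 genes were called lower and 30 were higher with sgDDX6.2. Over both guides the block ended the call of GBP2 and added those of IFITM3 and PARP10. The number called at least 2-fold lower depended on low values. A pseudocount of 5 left 8 (both guides), 11 (sgDDX6.1) and 5 (sgDDX6.2), and a TPM filter of 5 left 12 of 30 with sgDDX6.1. Leaving out a library took the counts of genes called lower to 34 to 36 (both guides), 34 to 38 (sgDDX6.1) and 33 to 34 (sgDDX6.2). With 1 library left in a group, that library is assumed to vary like the others.

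Sign changes occurred only in values that were not called. For GBP4 over both guides quantile normalization gave 0.0902 and removal of the GC trend 0.0570, and leaving out single libraries gave -0.0427 to 0.0146. Leaving out libraries took GBP4 from -0.0998 to 0.0074 with sgDDX6.1 and from -0.0106 to 0.0467 with sgDDX6.2. Quantile normalization gave GBP4 0.1170 with sgDDX6.1 and -0.0535 between guides. For IFITM3 over both guides removal of the GC trend gave -0.0077. With sgDDX6.2, IFI35 had -0.1140 after removal of the GC trend and -0.0711 to 0.0873 when libraries were left out, and PARP10 had -0.2030 to 0.0622. DTX3L between guides had 0.0124 with median centring, 0.0234 with quantile normalization, 0.0277 after removal of the GC trend and -0.0731 to 0.0575 when libraries were left out. The cause of these changes was not tested. With the 4 sgDDX6 libraries pooled into 1 group, the calls of GBP2, IFITM2 and IFI35 were lost. TPM carries no depth, so no detection limit was given for genes near 0.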
